A study of Drosophila melanogaster with 3 samples.

Results

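Heat shock genes encode the chaperones that hold or refold damaged proteins, together with the factor that switches them on. The 10 genes described here were 6 of the small heat shock protein cluster at cytological position 67B (Hsp22, Hsp23, Hsp26, Hsp27, Hsp67Ba and Hsp67Bc), Hsp68, Hsp83, the constitutive Hsp70 cognate Hsc70-4, and Hsf, which encodes heat shock factor. They were chosen by name, with earlier results of these data known, and are 10 of the 13945 protein-coding genes annotated on the chromosome arms. For each of them, every peak summit of every deposited list was taken that fell within the gene or 2 kb to either side.

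The experiment was a chromatin immunoprecipitation with sequencing (ChIP-seq) of CG17359, a Drosophila melanogaster protein that the RefSeq annotation calls uncharacterized. Whole embryos aged 0 to 14 h came from a transgenic line that stably expresses CG17359 with GFP at its C-terminus, and chromatin was recovered with an antibody against GFP in 3 biological replicates, which form 1 group. The labels give no heat treatment, no untagged strain and no second condition, and they do not name the promoter that drives the transgene. Each replicate's peaks were called by the authors against 1 shared control, and 5 lists were used: 1 per replicate, 1 from the pooled replicates, and 1 thresholded for irreproducible discovery rate (IDR), the authors' set of reproducible peaks.

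In flies, heat shock factor binds as a trimer to heat shock elements, runs of the unit NGAAN in alternating orientation that lie mostly close upstream of a start site. The promoters of inducible heat shock genes carry a paused RNA polymerase before any stress and are opened by GAGA factor, the product of Trl. Several members are also used without heat: Hsp83 and Hsc70-4 are transcribed in most cells, and Hsp26 and Hsp27 are expressed in the ovary and during normal development.

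A thresholded summit lay within 500 bp of an annotated start site at 6 of the 10 genes, namely Hsp27, Hsp83, Hsp26, Hsp22, Hsc70-4 and Hsp68. Over all protein-coding genes the same rule held for 3326 of 13945, or 23.9%. With the wider window of the gene and 2 kb, 9 of 10 genes had a thresholded summit, all but Hsf, beside 41.8% of protein-coding genes. Within 2 kb of a start site it was 8 of 10, without Hsf and Hsp23, beside 34%. The members' counts therefore stood above the background share under each of these 3 rules. Hsp67Ba and Hsp67Bc entered the counts of 8 and 9, and Hsp23 that of 9, only through a peak at a neighbour's promoter. The design holds 1 group, so no contrast between samples exists to test, and these shares describe the same lists.

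The longer pooled list of 30000 peaks had a summit within 2 kb of all 10 genes, beside 64.3% of protein-coding genes. It had one within 500 bp of a start site at 9 genes, all but Hsp67Ba, beside 46.8%. All 3 replicate lists held a summit within 500 bp of a start site at 8 genes, without Hsp67Ba and Hsp67Bc, beside 38.8%. When each replicate list was limited to its 7287 strongest peaks, the length of the thresholded list, that count was 5. Hsp23, Hsf and Hsp68 were lost from it. The share of protein-coding genes under this limit is not given here, so the drop is no result about the members. In all, 22 pooled summits lay in the members' windows. A summit within 150 bp was present in all 3 replicates for 11 of them, in 2 replicates for 7, in 1 for 3, and in none for 1. The 7 thresholded summits were all present in every replicate. The thresholded list was made for reproducibility from these same lists, so that presence is no independent support. The matching shares over all 30000 pooled and all 7287 thresholded summits are not given here.

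**Figure D1:**
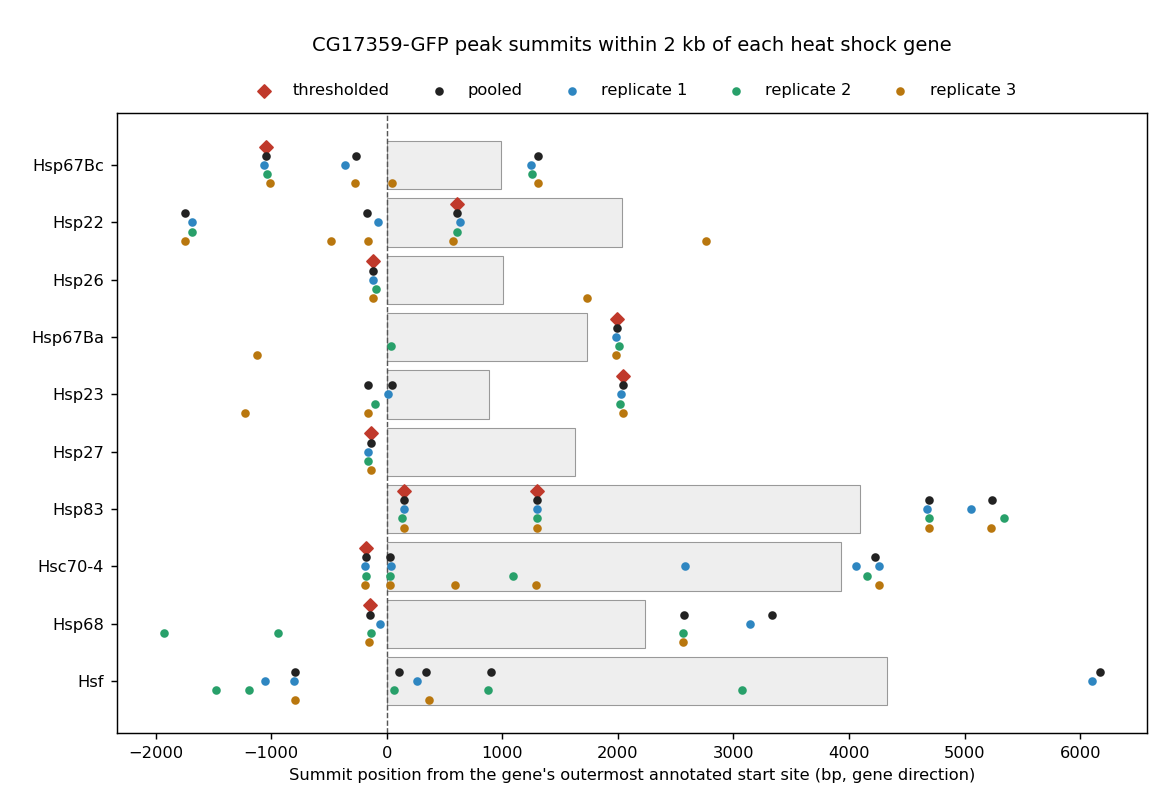
Position of every peak summit within 2 kb of the 10 heat shock genes, in bp from each gene's outermost annotated start site in the gene's direction. Grey bars are the genes, red diamonds the thresholded summits, and dots the pooled and replicate summits. The thresholded summits of Hsp26, Hsp27, Hsp68 and Hsc70-4 lie 118 to 179 bp upstream of the start, Hsp83 has 2 inside the gene, and Hsf has none.

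The 6 thresholded promoters spanned nearly the whole range of strength. Signal values are the authors' own peak scores, on a scale the labels do not give, and they are compared only within a list. Among the 3326 protein-coding genes with a thresholded promoter summit, Hsp27 stood at position 68 by signal value, Hsp83 at 274, Hsp26 at 677, Hsp22 at 851, Hsc70-4 at 1674 and Hsp68 at 3158. The median signal value of those 3326 promoters was 449.8. Hsp27, Hsp83, Hsp26 and Hsp22 were above it, Hsc70-4 at 446.1 was just under it, and Hsp68 at 227.1 was near the lowest value in the list, 210.95. The order of the 6 was the same in the pooled list and in replicates 2 and 3. In replicate 1, Hsp22 and Hsp26 changed places, so these neighbours in the order were not separated by the replicates.

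**Figure D2:**
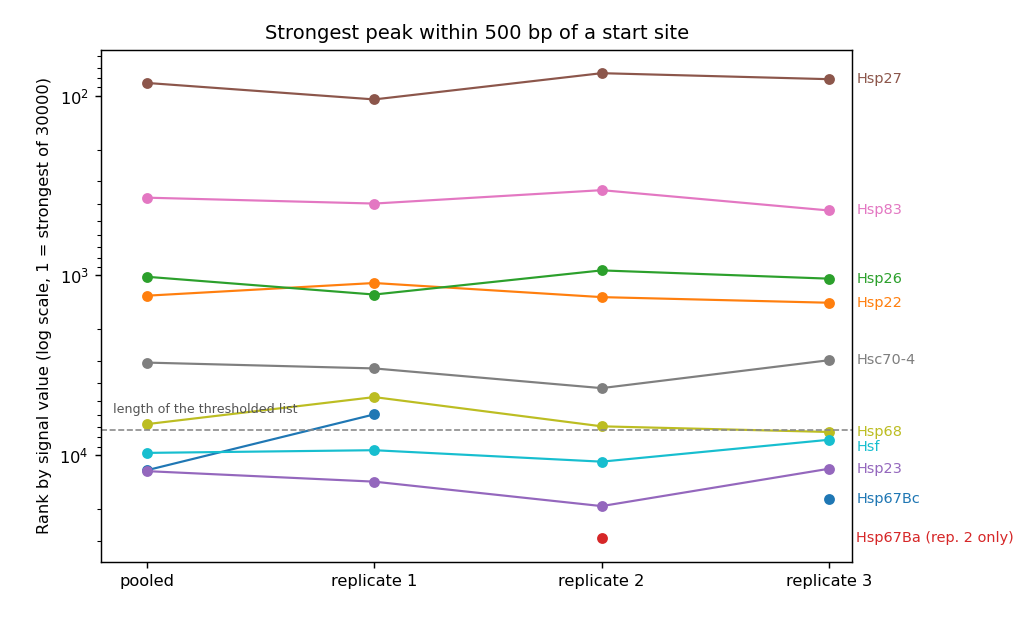
Rank by signal value of the strongest peak within 500 bp of a start site of each heat shock gene, on a log axis with the strongest at the top, in the pooled list and the 3 replicate lists of 30000 peaks each. Lines join the ranks of 1 gene, and the dashed line marks rank 7287, the length of the thresholded list. Hsp27 stays between ranks 75 and 105, while Hsp68 lies beside the dashed line and Hsp23, Hsf and Hsp67Bc fall beyond it in most lists.

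Hsp27 (chr3L:9384063-9385694, plus strand, Release 6) encodes a small heat shock protein, an ATP-independent chaperone that holds unfolding proteins. It carried the strongest peak of the 10 genes. The pooled summit lay 136 bp upstream of its start site, with a signal value of 3105.5 and rank 85 of 30000. In replicates 1, 2 and 3 the signal value was 759.1, 1020.6 and 1349.1, at ranks 105, 75 and 81. The mean rank was the top 0.29% of a list ± 0.053 (SD, n = 3), and the 3 summits lay within 24 bp of each other. The 151 bp around this summit are printed because they are the strongest promoter site of the set, and they hold no pair of heat shock units. The summit is base 76 of each 151 bp sequence in the text. Sequences are from the RefSeq Release 6 genome, 5′ to 3′ on the strand of the gene, and capitals mark matches to GAANNTTC or TTCNNGAA, 2 heat shock units head to head or tail to tail.
Hsp27 (chr3L:9383852-9384002): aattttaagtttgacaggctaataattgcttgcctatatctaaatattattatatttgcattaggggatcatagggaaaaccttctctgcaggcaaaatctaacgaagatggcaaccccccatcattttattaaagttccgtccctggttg

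Hsp26 (chr3L:9376418-9377427, minus strand) is another small heat shock protein gene, known for a pair of heat shock element regions and a GAGA-rich stretch in its promoter. Its pooled summit lay 118 bp upstream of the outermost start site, with a signal value of 926.8 and rank 1020. The replicate signal values were 229.5, 291.8 and 401.6, at ranks 1281, 940 and 1045. The mean was the top 3.63% ± 0.582 (SD, n = 3), and the replicate summits spanned 24 bp. The sequence shows a GAAATTTC match centred 6.5 bp upstream of the summit, and matches to GAGAG on the opposite strand, read here as ctctc, centred at 52, 67 and 69 bp downstream of it. Of the 6 such matches within 100 bp, those at 81, 83 and 85 bp lie beyond the printed bases.
Hsp26 (chr3L:9377470-9377620): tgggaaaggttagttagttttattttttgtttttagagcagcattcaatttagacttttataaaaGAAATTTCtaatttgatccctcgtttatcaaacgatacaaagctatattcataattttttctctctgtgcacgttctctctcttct

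Hsp22 (chr3L:9372931-9374964, plus strand) encodes the small heat shock protein of mitochondria. Its thresholded summit was unlike the others in position: it lay 457 bp upstream of the inner start site at 9373997 and 609 bp downstream of the outermost one at 9372931. In the annotation this base is in the 5′ UTR of the longer Hsp22 transcript and in the 3′ UTR of CG4456, which RefSeq also lists as Hsp67Bb, so the 2 genes share it. The pooled signal value was 813.1, at rank 1300, and the replicates gave 247.8, 239.9 and 334.3, at ranks 1105, 1324 and 1423. That is the top 4.28% ± 0.542 (SD, n = 3), with replicate summits spanning 54 bp. The inner start site has the usual parts of an inducible promoter, with a TATAAA match at -28 and pairs of heat shock units at -188 and -87, but the summit lay upstream of all of these. The 30 bases at the summit are shown since no heat shock unit pair lies within 200 bp of it, the nearest being centred 272.5 bp downstream.
Hsp22 (chr3L:9373526-9373555): aaactttaattatttgttaatattaagctg

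A weaker pooled summit at 9372762 lay 169 bp upstream of the outermost Hsp22 start site, 265 bp upstream of Hsp67Bc on the other strand and 40 bp inside CG4456. Its signal value was 128.0, at rank 12186, and replicates 1 and 3 had a summit within 150 bp of it while replicate 2 had none. It was therefore the nearest pooled summit to a start site of both Hsp22 and Hsp67Bc, but was no thresholded peak.

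Hsp83 (chr3L:3192969-3197059, plus strand) encodes the cytosolic Hsp90, a chaperone of kinases, receptors and other client proteins that is abundant without stress. It was the member with 2 thresholded summits in its window, 1154 bp apart, and the stronger of them was not at the promoter. The promoter summit lay 98 bp upstream of the inner start site at 3193216. It is 149 bp downstream of the outermost start site at 3192969, in the 5′ UTR of the longer transcript. The intronic summit lay 1303 bp downstream of the outermost start site and 1056 bp downstream of the inner one.

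The promoter summit of Hsp83 had a pooled signal value of 1581, at rank 370, and replicate values of 426.5, 495.4 and 640.6. The intronic summit had 2313.6, at rank 167, and replicate values of 622.8, 790.8 and 894.6. The intronic peak was the stronger in every list, by 1.46 times in the pooled list and by 1.46, 1.60 and 1.40 times in replicates 1, 2 and 3 (mean 1.48 ± 0.10, SD, n = 3). Its position was also the most repeatable of the thresholded sites, at 3194270, 3194272 and 3194272, an SD of 1.15 bp beside 7.94 bp at the promoter. The SDs of the other 5 thresholded sites ran from 6.93 to 50.7 bp. The intronic window held 29.9% G and C in 201 bp, beside 47.8% at the promoter summit. Over all thresholded summits the mean was 35.3%, and the 5th and 95th percentiles were 24.9% and 49.1%, so neither window lay outside that range. Among the thresholded sites of the set, that of Hsp22 was lowest, at 26.9%. The 30 bases near the promoter summit are shown for their GAAGTTTC match, centred 33.5 bp downstream of it, and the intronic site for having none within 100 bp.
Hsp83 promoter (chr3L:3193137-3193166): agaagcctctaGAAGTTTCtagagacttcc
Hsp83 intron (chr3L:3194197-3194347): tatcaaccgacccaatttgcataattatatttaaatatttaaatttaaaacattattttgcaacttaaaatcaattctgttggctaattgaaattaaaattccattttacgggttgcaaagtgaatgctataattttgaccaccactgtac

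Hsc70-4 (chr3R:15242687-15246614, plus strand) encodes the main constitutive cytosolic Hsp70, which also uncoats clathrin vesicles. Its thresholded summit lay 179 bp upstream of the first start site and 272 bp upstream of tefu, the ATM kinase gene transcribed the other way, so the peak cannot be assigned to one of these 2 genes. The pooled signal value was 446.1, at rank 3065, with 122.1, 105.1 and 200.8 in the replicates at ranks 3303, 4252 and 2973, or the top 11.7% ± 2.21 (SD, n = 3). A second, weaker pooled summit lay 32 bp downstream of the start, in the 5′ UTR, with a signal value of 178.5 at rank 8675. Its replicate summits fell within 1 bp of each other, although its rank in the replicates ran from 8685 to 23737. Another pooled summit lay 300 bp past the 3′ end of the gene, with a signal value of 171.7, and was present in all 3 replicates. The upstream site is shown for the GAACGTTC match 25.5 bp downstream of its summit.
Hsc70-4 (chr3R:15242433-15242583): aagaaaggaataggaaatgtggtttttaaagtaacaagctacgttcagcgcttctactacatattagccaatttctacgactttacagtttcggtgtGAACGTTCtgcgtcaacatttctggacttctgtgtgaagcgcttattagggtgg

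Hsp68 (chr3R:24055080-24057310, minus strand) encodes a heat-inducible Hsp70 that, unlike the Hsp70 copies, is a single gene. Its summit lay 141 bp upstream of the start site and was the weakest thresholded one of the set, with a pooled signal value of 227.1 at rank 6746. The replicate signal values were 92.1, 71.1 and 92.4, at ranks 4770, 6939 and 7459, or the top 21.3% ± 4.75 (SD, n = 3). The replicate summits, at 59, 139 and 153 bp upstream, were also the most scattered of the thresholded sites, with an SD of 50.7 bp. In replicate 3 the peak ranked beyond the 7287 strongest. When peaks were required to be among the 7287 strongest of 2 replicates, Hsp68 was lost without replicate 1 and without replicate 2, and kept without replicate 3. Its sequence nevertheless holds the longest run of exactly matching heat shock units of the 7 thresholded sites. There, 3 overlapping matches to 3 alternating units, and 6 matches to a pair, lie within 100 bp of the summit. Units with a mismatch were not searched for at any site.
Hsp68 (chr3R:24057376-24057526): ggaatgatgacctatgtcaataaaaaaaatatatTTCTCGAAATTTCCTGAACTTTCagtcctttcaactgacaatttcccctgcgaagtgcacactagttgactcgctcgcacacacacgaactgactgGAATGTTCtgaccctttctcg

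By exact matches within 100 bp of the summit, heat shock units and signal value therefore did not run in the same order among these promoters. A pair of heat shock units lay within 100 bp of 4 of the 7 thresholded summits, those of Hsp26, the Hsp83 promoter, Hsc70-4 and Hsp68, and within 50 bp of the same 4. Over all 7287 thresholded summits the share was 10.1% within 100 bp and 5.30% within 50 bp, and over all pooled summits it was 9.85% within 100 bp. Hsp27, the strongest, had its nearest pair 198.5 bp upstream of the summit, while Hsp68, the weakest, had a 3-unit match that only 0.206% of all thresholded windows hold. Counted instead at the pooled summit nearest to a start site of each member, whatever its strength, the pair lay within 100 bp at 4 of 10 members, Hsp26, Hsp83, Hsp68 and Hsf. That count was 8 of 10 within 200 bp, beside 18.3% of all pooled summits. It was 1 of 10 when 3 units were required within 100 bp, beside 0.217%, so it depends on both settings. Hsp67Ba, with no pooled summit within 500 bp, could not be counted in any of these. Hsp22 and Hsp67Bc had the same nearest summit, so members here are not separate windows. The nearest summit was not the strongest within 500 bp at Hsp22, Hsp23, Hsf and Hsc70-4. At the strongest one, Hsp23 had 2 pairs within 50 bp, the nearest centred 1.5 bp from the summit, and Hsc70-4 had 1. Hsp22 and Hsf had none within 100 bp of theirs. A search of both strands for letters describes the sequence and does not show a bound factor. The members were chosen as heat shock genes, so a share of these elements above that of all summits is no result about CG17359.

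The promoters were also searched whether or not a summit lay there. In the 300 bp from 250 before to 50 after the outermost start site, 5 of 10 members had a pair of heat shock units (Hsp23, Hsp26, Hsp67Bc, Hsp68 and Hsc70-4), beside 15.9% of protein-coding genes. GAGAG, the core of a GAGA element, was in 3 of 10 beside 29.7%, which is the background share. The core promoter word TATAAA was in 8 of 10 beside 45.8%. These counts use the outermost start site only. With every annotated start site searched, a pair was in 7 of 10 members, GAGAG in 4 and TATAAA in 8. No background share by that rule is given here. In a narrower window chosen after seeing the data, TATAAA began 35 to 20 bp upstream of any annotated start site in 8 of 10 members. These were all but Hsf and Hsp67Ba, beside 9.74% of protein-coding genes. TATAAA was thus present at Hsp23 and Hsp67Bc, which had no thresholded promoter summit, as well as at the 6 that did.

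**Figure D3:**
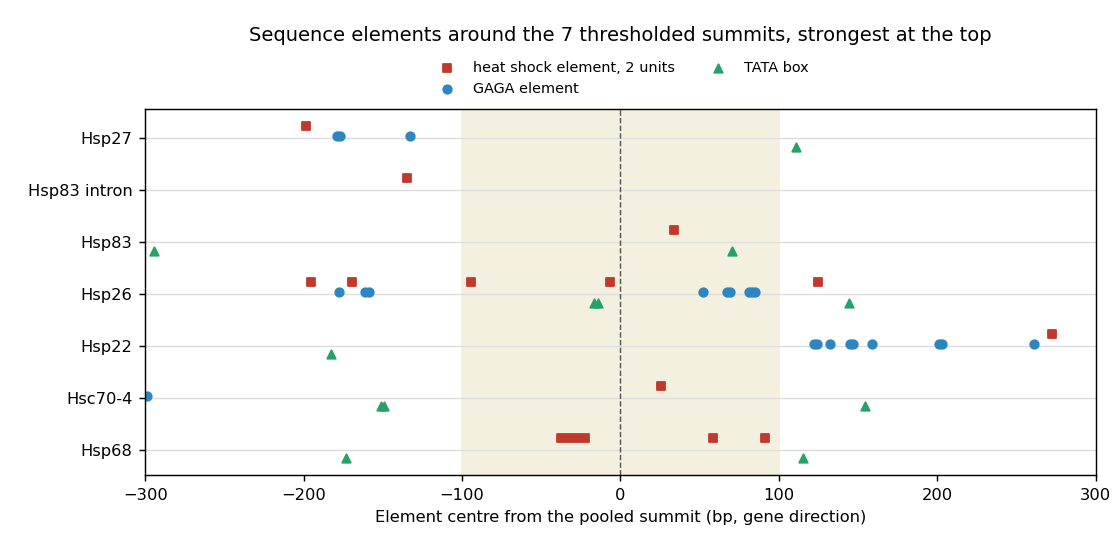
Positions of sequence matches around the 7 thresholded summits at heat shock genes, in bp from the pooled summit in the direction of the gene, with the strongest peak at the top. Squares are pairs of heat shock units, circles GAGAG, triangles TATAAA, and the shaded band is 100 bp to either side. Pairs of heat shock units fall in the band at Hsp83, Hsp26, Hsc70-4 and Hsp68, and outside it at Hsp27, Hsp22 and the Hsp83 intron.

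The offsets of the members were like those of other promoters. All 6 thresholded promoter summits lay upstream of the nearest start site, with a median offset of -138.5 bp. Over the 3326 protein-coding genes the median was -124 bp, the quartiles were -205 and -35 bp, and 81.0% of summits lay upstream. Hsp22, at -457 bp, was the one member outside the quartiles.

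In the 67B cluster, 14184 bp of arm 3L (chr3L:9371511-9385694) with 8 protein-coding genes, 3 thresholded summits served the windows of all 6 members. Each of the 3 lay in the windows of exactly 2 members: the first in those of Hsp22 and Hsp67Bc, the second in those of Hsp26 and Hsp67Ba, and the third in those of Hsp27 and Hsp23. In each pair 1 gene had the summit at its promoter and the other did not. Hsp67Bc was 1043 bp from the first summit, which lay upstream of it. The second summit lay 257 bp past the 3′ end of Hsp67Ba, and the third lay 1162 bp past the 3′ end of Hsp23. With a window of 1 kb in place of 2 kb, only the peak beside Hsp26 and Hsp67Ba remained shared, so the count of 9 members with a summit includes 3 genes whose only thresholded summit is at a neighbour's promoter.

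The spacing of the 3 summits was 4005 and 6382 bp, beside a median gap of 5554 bp on arm 3L. The next thresholded summits outside the cluster lay 6280 bp to the left of the first of the 3 and 13414 bp to the right of the last. Thresholded summits came to 2.12 per 10 kb in the cluster and 0.551 per 10 kb on the whole arm. Start sites of protein-coding genes were also denser there, at 5.64 per 10 kb beside 0.974. The cluster therefore had more summits per length than the arm. Its ratio of summits to start sites was lower, but all summits were counted there, at promoters or not. That ratio is no share of occupied start sites.

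**Figure D4:**
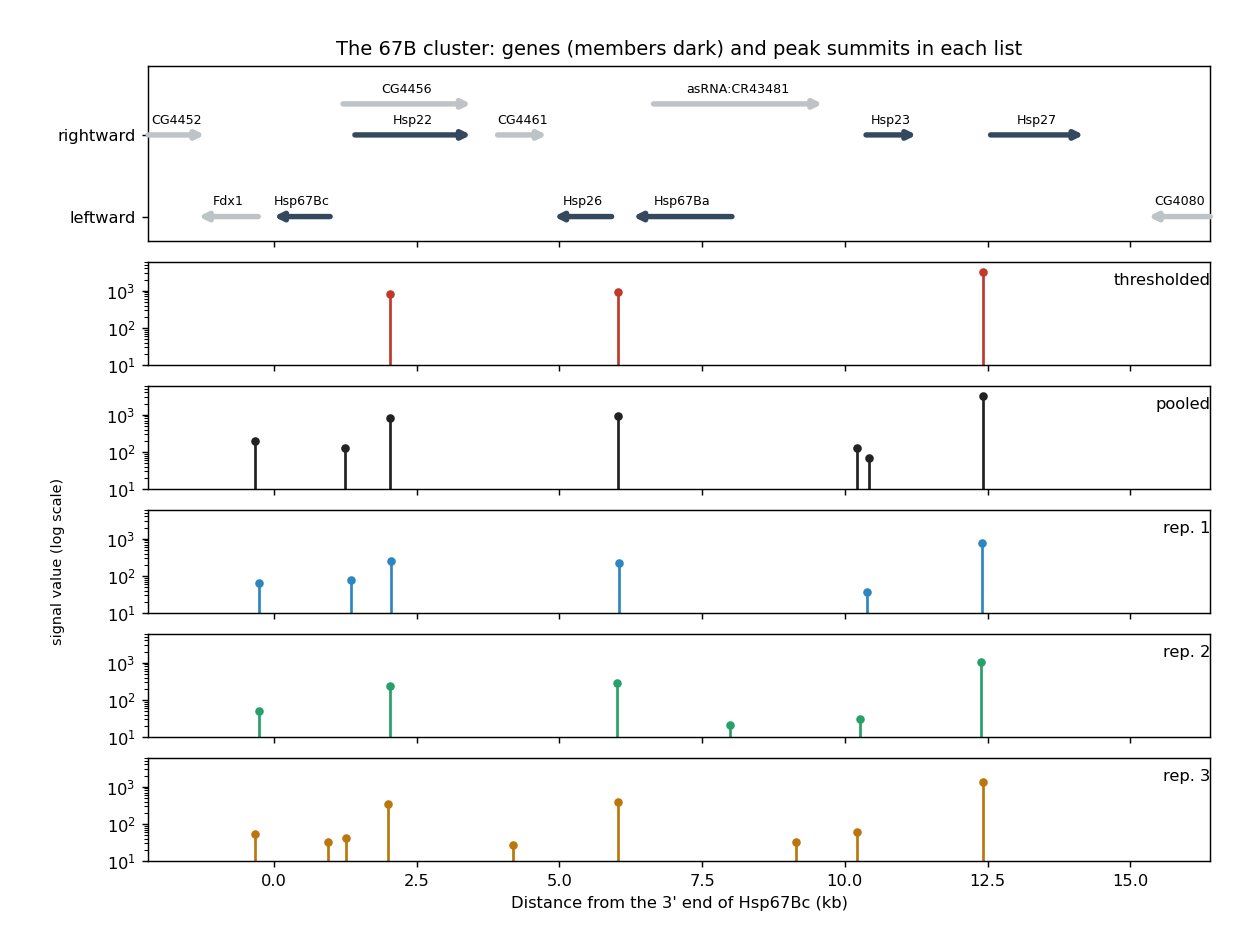
Genes of the 67B cluster drawn as arrows in the direction of transcription, with the 6 described genes dark, above the peak summits in the members' windows in each list, as signal value on a log axis against distance in kb from the 3′ end of Hsp67Bc. Pseudogenes are not drawn. The 3 thresholded summits recur in every list, and the strongest other summit there has a pooled signal value of 195.6.

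Hsp23, Hsp67Bc and Hsp67Ba were the small heat shock protein genes with no thresholded promoter summit. Hsp23 (chr3L:9381882-9382765, plus strand), which is induced by heat and by the hormone ecdysone, had 2 weak pooled summits, 163 bp upstream with a signal value of 126.6 and 44 bp downstream with 67.6. The nearest replicate summits lay at +14, -99 and -163 bp, so the replicates did not fix a position (mean -82.7 ± 89.6 bp, SD, n = 3). Hsp67Bc (chr3L:9371511-9372497, minus strand), which with Starvin takes part in the clearance of misfolded protein, had within 500 bp only the pooled summit shared with CG4456 and Hsp22, at -265 bp. In replicate 1 its nearest summit was at -358 bp, in replicate 3 at +46 bp, and replicate 2 had none within 500 bp. Hsp67Ba (chr3L:9377802-9379534, minus strand) had no pooled summit within 500 bp of its start. The one summit there was in replicate 2, at +36 bp, with a signal value of 21.3 at rank 29172 of 30000, close to that list's lowest value of 20.7. These 3 genes lie between or beside neighbours with strong peaks, and every 50-base word within 250 bp of their start sites occurs once in the genome, as it does for all 10 members.

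Hsf (chr2R:18130303-18134634, minus strand), the gene of the transcription factor itself, had pooled summits but no thresholded one. The strongest lay 340 bp downstream of its start site in an intron, with a signal value of 158.5 at rank 9755. Replicates 1 and 3 had a summit there, with signal values of 52.4 and 84.4 at ranks 9424 and 8243. Replicate 2 had its summit 62 bp from the start, with a signal value of 48.3 at rank 10915, which matched a second pooled summit at +104 bp with 98.3. The 3 nearest replicate summits, at 262, 62 and 364 bp, had a mean of 229 ± 154 bp (SD, n = 3). Further pooled summits in the window lay 904 bp into the gene (58.1), 1 bp upstream of Pcl, which encodes Polycomb-like (70.7), and 30 bp upstream of Dlip3 (55.8). Hsf was the member with the most pooled summits, all of them weak, and the farthest that counted was 1839 bp beyond the gene while the nearest left out was 2045 bp beyond it.

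In whole embryos a strong site in few cells and a weak site in many cells cannot be told apart, so these signal values do not say in how many cells a heat shock promoter was occupied. The thresholded signal values of the 3326 promoters also depend on the authors' peak caller and control, and no untagged strain was among the samples.

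Among the other chaperone genes, 18 of a list of 45 had a thresholded summit within 500 bp of a start site (40%), and 27 of 45 a pooled one (60%). The shares over all protein-coding genes, above, were 23.9% and 46.8%. The sets differ in kind, since the list of 45 includes the noncoding lncRNA:Hsromega, which was among both the 18 and the 27. In the stronger part of the thresholded list, 3643 peaks, the count was 8 of 45 beside 14.0% of protein-coding genes, so most of the 18 were among the weaker thresholded peaks. By role, the 3 genes listed for heat shock transcription all had one, as did both Hsp90 relatives, Gp93 of the endoplasmic reticulum and Trap1 of mitochondria. The count was 3 of 5 for Hsp70 cognates and relatives (Hsc70-3, Hsc70-5 and Hsp110), 5 of 11 for cochaperones (DnaJ-1, Droj2, DnaJ-H, Cdc37 and CG1416) and 4 of 12 for chaperonins (Hsp60A, CCT3, CCT5 and CCT8). It was 1 of 6 for the remaining small heat shock proteins (CG14207) and 0 of 6 for the inducible Hsp70 copies.

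The 0 of 6 at Hsp70 has a limit that the members do not share. Of the 50-base words within 250 bp of the Hsp70 start sites, between 0% and 46.7% occur once in the genome, beside 100% for each of the 10 members, and how the authors placed reads that match several copies is not given in the sources used here. At the head of the list was the promoter of Trl, the GAGA factor gene, with a signal value of 1048 at +111 bp. Next came Hsc70-5, the mitochondrial Hsp70, with 943.6 at -13 bp, which was close to Hsp26 within the same list. DnaJ-H, an Hsp40, had 602.1 at -165 bp, the chaperonin subunit CCT3 588.7 at -447 bp and CG5446 570.0 at -253 bp. CCT8 had 486.9 at -449 bp and the heat-induced noncoding RNA lncRNA:Hsromega 437.2 at -229 bp. The mitochondrial chaperonin Hsp60A had 429.8 at -145 bp. Within 250 bp of a start site the count was 14 of 45, without CCT3, CG5446, CCT8 and CG1416. None of the 45 reached the promoter of Hsp83, at 1581, or of Hsp27.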

How the data were processed

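Peak lists of a ChIP-seq experiment on GFP-tagged CG17359 in 3 biological replicates of whole embryos were analysed. Per the deposited text files, each replicate's peaks were called against 1 shared control, the pooled list came from the alignments of all 3, the thresholded list came from these 4 lists, and the assembly was dm6. Peak caller, aligner and IDR threshold: not given in the sources used here. Signal values, and the -log10 q values that served only as an alternative ranking, were deposited by the authors. The replicate and pooled lists stop at exactly 30000 peaks and the thresholded list holds 7287. Library depth is unknown, since no read numbers come with the peaks.

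Summits were compared with gene models of Ensembl release 115, whose arms, lengths and coordinates of the 10 genes are those of the RefSeq Release 6 annotation. Offsets are to the nearest annotated start site, and negative values are upstream. Pooled and replicate summits within 150 bp counted as 1 site. Python 3.11.15, numpy 2.4.6 and pandas 2.3.3 were used, and the overlap and motif steps were tested on simulated data. The 10 genes and the wider chaperone list were chosen with earlier results of these data known. The site tolerance, the TATAAA window and the match of CG5446 by that name were chosen after seeing the data. The genes named are the 10 members, genes whose start or body shares their summits, and the wider list's genes with a thresholded promoter summit, with values for the 8 strongest. Alternatives varied the window, the start sites used, the peak list, the replicates, the ranking and the element. The SDs measure the spread between 3 replicates of 1 transgenic line.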

Additional observations from a re-analysis of the deposited data

How the results depend on the processing

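Of 55 alternative values for the counts over genes, peaks and sites, 50 stayed within 1.5 times the reported one. The others were as follows. Limiting each replicate list to its 7287 strongest peaks gave 5 members with a promoter summit in all 3 replicates, in place of 8, with no background share given. A window of 1 kb left 1 shared cluster peak in place of 3. Heat shock unit pairs were found at 8 members within 200 bp and at 1 member when 3 units were required, in place of 4. The stronger part of the thresholded list, 3643 peaks, gave 8 genes of the wider chaperone list in place of 18, and 5 members in place of 6, without Hsp68. The background shares were then 14.0% in place of 23.9%. With 250 bp or only outermost start sites, Hsp22 had no thresholded promoter summit. Of 54 values for single members, offsets and ranks alike, 40 stayed within 1 SD of the replicate values, and 6 changed sign. Where the SD is wide, that tolerance covers large shifts: with a replicate left out the Hsp22 offset ran from -310 to -118 bp in place of -169, and the Hsf offset from 162 to 313 bp in place of 104. The Hsp23 offset was -82.7 bp as the mean of the replicates, and -131 to -42.5 bp with a replicate left out, in place of 44. The Hsp67Bc offset ran from -358 to 46 bp with a replicate left out. The Hsp83 offset was 149 bp from the outermost start site in place of -98. Ranking by -log10 q tied the strongest peaks at a mean rank of 3315 and could not order Hsp27, Hsp83, Hsp26, Hsp22 and Hsc70-4, which leaves Hsp68 as the one promoter of the 6 it set apart. Sites found in all 3 replicates numbered 10 at 75 bp and 16 at 300 bp, alternatives chosen after seeing the data. The cause of these changes was not tested. No paired analysis was possible because the samples form 1 group. Read depth is unknown, so a missing summit means only that none was listed among the 30000 peaks.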

Other observations

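Neighbours of the heat shock genes also had summits in the members' windows. SMC1, a cohesin subunit gene, starts close to Hsp68 on the other strand, and replicate 2 listed a summit 38 bp upstream of it with a signal value of 90.7 at rank 5143. That was above the 71.1 of the Hsp68 promoter in the same list, but replicates 1 and 3 and the pooled list had no summit within 150 bp of it. It was the highest ranked of 17 summits in these windows that 1 replicate listed without a pooled one nearby.

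Fdx1, a ferredoxin gene beside Hsp67Bc, had a pooled summit 50 bp inside the gene with a signal value of 195.6. It was at rank 7903, just beyond the thresholded list. All 3 replicates listed a summit within 150 bp of it. In replicates 1 and 2 that summit lay just upstream of the gene, and only in replicate 3 inside it. CG14966, downstream of Hsp83, had one 27 bp upstream of its start with 111.5, also in all 3 replicates, at ranks from 10067 to 24470. A thresholded-strength summit just outside the Hsp83 window, with a signal value of 478.8, lay 2111 bp from the gene. CG6000, beyond the 3′ end of Hsp68, had pooled summits at -417 bp with 58.9, which no replicate list held, and at +349 bp with 100.4, which replicates 2 and 3 held.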
